A study of Mus musculus with 9 samples.

Results

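The enzymes that decide whether a mucin-type O-glycan of a CD8 T cell stays a core 1 structure or is branched to core 2 were followed here at the transcript level. They are C1galt1, the core 1 synthase; St3gal1, which sialylates core 1; St8sia6, which adds a further sialic acid; Gcnt1, the core 2 branching enzyme; and B4galt5, a galactosyltransferase that can extend the core 2 branch. The genes were listed by name from their known roles, and every probe set whose RefSeq accession maps to a listed gene was kept. That gave 5 genes and 6 probe sets, of 908 named genes and 1246 probe sets on the array, with Gcnt1 the gene measured by 2 probe sets.

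RNA came from purified CD8 T cells with a transgenic T cell receptor, from female mice of the B10D2 strain, and was hybridised to 9 GLYCOv4 arrays, a custom Affymetrix design for glycosylation genes. Deletion cells (3 arrays) had been stimulated in vivo with cognate antigen as a weak signal. Anergy cells (3 arrays) had been stimulated in vivo with cognate antigen as a strong signal. Naive cells (3 arrays) carried the same kind of transgenic receptor and were the unstimulated control. The study set out to find glycosylation transcripts that differ between the deletion and anergy fates. Replicates are numbered in the labels without a word on separate animals, so each p-value reflects the scatter among these samples, part or all of which may be technical.

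In O-glycan synthesis a GalNAc residue on serine or threonine first receives galactose from C1galt1, an enzyme that folds only with its chaperone Cosmc, the product of C1galt1c1. The resulting core 1 disaccharide is then either capped with sialic acid by St3gal1 or branched by Gcnt1, and the capped form is no longer a substrate for Gcnt1. Resting CD8 T cells are known to carry mostly sialylated core 1 glycans and activated ones to carry core 2 glycans, for example on CD43.

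Of these 6 probe sets, B4galt5 and 1 of the 2 for Gcnt1 were higher in both kinds of stimulated cells than in naive cells, and St3gal1 and St8sia6 were lower in anergy cells than in naive cells. The sequences upstream of the transcription starts of the genes that were higher are shown next. RefSeq gives Gcnt1 3 starts, and its 2 probe sets, named for different transcripts, gave unlike values. Whether the starts have a part in that was not tested. Each run is the 250 bases before a start, 5′ to 3′ on the gene's strand, from RefSeq on the GRCm38.p6 assembly. Capitals mark a match to a TATA box (TATAAA) or a GC box (GGGCGG) on either strand.
Gcnt1 start 1, chr19:17372845-17373094, minus strand: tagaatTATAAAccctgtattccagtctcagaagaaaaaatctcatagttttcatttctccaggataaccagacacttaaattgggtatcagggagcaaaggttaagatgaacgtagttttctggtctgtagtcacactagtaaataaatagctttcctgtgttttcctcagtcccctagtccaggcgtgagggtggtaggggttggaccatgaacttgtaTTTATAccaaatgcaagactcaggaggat
Gcnt1 start 2, chr19:17356668-17356917, minus strand: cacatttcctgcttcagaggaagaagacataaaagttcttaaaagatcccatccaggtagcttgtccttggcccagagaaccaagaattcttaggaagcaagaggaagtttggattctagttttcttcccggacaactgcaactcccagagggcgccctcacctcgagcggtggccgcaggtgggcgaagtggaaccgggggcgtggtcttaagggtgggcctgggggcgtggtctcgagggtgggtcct
Gcnt1 start 3, chr19:17339506-17339755, minus strand: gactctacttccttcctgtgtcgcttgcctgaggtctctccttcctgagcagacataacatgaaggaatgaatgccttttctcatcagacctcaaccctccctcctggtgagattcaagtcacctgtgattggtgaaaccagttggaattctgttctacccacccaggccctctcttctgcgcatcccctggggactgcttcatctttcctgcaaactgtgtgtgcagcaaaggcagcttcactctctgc
B4galt5, chr2:167349179-167349428, minus strand: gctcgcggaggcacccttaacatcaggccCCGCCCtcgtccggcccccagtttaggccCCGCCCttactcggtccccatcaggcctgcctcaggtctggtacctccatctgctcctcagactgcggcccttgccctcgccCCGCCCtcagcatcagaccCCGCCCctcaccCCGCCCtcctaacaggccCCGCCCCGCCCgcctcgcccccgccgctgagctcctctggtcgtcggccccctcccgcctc
Gcnt1 start 1 held 2 TATA box matches, and at least 1 match was present in 12.4% of the 32851 such windows of all genes. Gcnt1 starts 2 and 3 held no match to either motif. B4galt5 held 7 GC box matches, a pair of which overlap, and at least 1 match was present in 32.7% of all windows. The window of C1galt1, which was not called against naive cells, held 5 GC box matches. GC boxes were thus not particular to the genes that were higher. The 3 Gcnt1 windows had a GC content of 40.4%, 55.6% and 51.6%, and the B4galt5 window had 73.2%, against a median of 52.4% over all windows. The 5th and 95th percentiles over all windows were 34.8% and 73.6%, and the C1galt1 window had 82.8%. Further motifs were searched on both strands: the T-box half-site GGTGTGA (in 3.3% of all windows), the STAT site TTCNNNGAA (7.0%) and the AP-1 site TGANTCA (6.7%). None of these was found in these 4 windows or in those of C1galt1 and St8sia6; a window for St3gal1 was not used here. A match describes the letters and is not a binding site, no match says only that the letters are not in the window, and which start gives which probed transcript was not analysed here.

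All values below are log2 expression as the authors deposited it, after RMA, the only processing step named in the submitters' notes. Differences were tested with limma over all 9 arrays, two-sided, with a Benjamini-Hochberg adjustment across the 1246 probe sets and a threshold of 0.05. The level of a probe set also depends on its probes, so levels are compared between groups and never between genes. Groups that do not overlap are common with so few arrays. Over the whole array this held for 31.5% of probe sets between deletion and naive cells and for 33.9% between anergy and naive cells. The lower quartile of each array lay between 3.19 and 3.29 and its median lay between 4.44 and 4.58. Precision is limited by the few arrays per group, with a standard error (SE) of a difference whose median over all probe sets was 0.087. Replicates correlated at 0.995 to 0.998 over all probe sets, and anergy replicate 3 had the widest spread around its group mean, a residual standard deviation (SD) of 0.166 against 0.094 to 0.129 on the other 8 arrays. Of 11 T cell marker genes 1, Cd2, was on the array under a name that could be matched, so the CD8 identity of the cells was not analysed here beyond its level.

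C1galt1, whose product makes the core 1 disaccharide, gave 6.51, 6.75 and 6.52 in deletion cells, 6.51, 6.68 and 6.40 in anergy cells and 6.25, 6.53 and 6.38 in naive cells. The 3 groups overlapped. The difference was 0.21 ± 0.10 (SE) for deletion against naive (adjusted p = 0.246, limma) and 0.14 ± 0.10 for anergy against naive (adjusted p = 0.392). The 95% limits allowed at most a 1.35-fold higher level in deletion cells and a 1.30-fold higher level in anergy cells. The chaperone gene C1galt1c1, without which the synthase is not active, averaged 7.36 ± 0.11 in deletion cells, 7.37 ± 0.20 in anergy cells and 7.67 ± 0.21 in naive cells (SD, n = 3 arrays each). Its differences of -0.31 ± 0.12 for deletion and -0.30 ± 0.12 for anergy against naive did not pass (adjusted p = 0.137 and 0.124, limma).

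St3gal1, the sialyltransferase that caps core 1, gave 8.73, 8.70 and 8.78 in deletion cells, 8.54, 8.15 and 8.07 in anergy cells and 8.91, 9.13 and 9.02 in naive cells. The 3 groups did not overlap, with naive cells highest, deletion cells between and anergy cells lowest. It fell 1.70-fold in anergy cells against naive cells (95% limits 1.42 to 2.03; difference -0.77 ± 0.11, adjusted p = 0.000608, limma). In bulk RNA, fewer cells that express a gene and less of its RNA per cell cannot be told apart. In deletion cells the difference from naive cells was -0.28 ± 0.11, or 1.22-fold lower with limits of 1.02 to 1.45, and it did not pass (adjusted p = 0.139). It passed in the fit without anergy replicate 1 (adjusted p = 0.0231) and in the fit of the deletion and naive arrays alone (adjusted p = 0.0252).

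St8sia6 codes for an alpha-2,8-sialyltransferase that prefers O-glycans. It gave 2.81, 3.20 and 3.08 in deletion cells, 2.48, 2.69 and 2.66 in anergy cells and 3.32, 3.00 and 2.99 in naive cells. Anergy cells lay below both other groups, which overlapped each other. It fell 1.41-fold in anergy cells against naive cells (limits 1.17 to 1.70; difference -0.49 ± 0.12, adjusted p = 0.0118, limma), while deletion cells differed from naive cells by -0.07 ± 0.12 (adjusted p = 0.828). The signal was dim: 2 of 3 deletion, 3 of 3 anergy and 2 of 3 naive arrays had it below their lower quartile. With no detection call, whether the probe set measured this transcript on those arrays was not tested, so the size of the fall is uncertain.

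Gcnt1, the enzyme that starts the core 2 branch, was read by probe sets named for its transcripts NM_173442 and NM_010265. The NM_173442 probe set gave 4.78, 4.76 and 5.0 in deletion cells, 5.08, 4.71 and 4.70 in anergy cells and 2.54, 2.51 and 2.98 in naive cells. Every stimulated array lay above every naive array, and deletion and anergy arrays overlapped. Against naive cells it rose 4.50-fold in deletion cells (limits 3.59 to 5.64; difference 2.17 ± 0.15, adjusted p = 2.4e-06, limma). It rose 4.45-fold in anergy cells (limits 3.55 to 5.57; difference 2.15 ± 0.15, adjusted p = 2.07e-06). Among all 1246 probe sets it was the 18th largest rise in deletion cells and the 16th in anergy cells. All 3 naive arrays had it below their lower quartile, where differences can be compressed, so these folds may understate the real ones. This probe set is of the type that can bind more than 1 transcript.

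The NM_010265 probe set of Gcnt1 gave 3.38, 3.18 and 3.34 in deletion cells, 3.60, 3.26 and 3.23 in anergy cells and 3.12, 3.04 and 3.16 in naive cells. Both stimulated groups lay just above naive cells with no overlap, at levels near the lower quartile of the arrays. Non-overlap with naive cells was found for 31.5% of all probe sets in deletion cells and 33.9% in anergy cells. Its differences from naive cells were 0.19 ± 0.10 in deletion cells (adjusted p = 0.285, limma) and 0.26 ± 0.10 in anergy cells (adjusted p = 0.104). All 3 naive arrays had this probe set below their lower quartile too, so the measured ratios of 1.14 in deletion cells and 1.19 in anergy cells set no upper bound. The probe sets of this gene gave unlike values, and which transcripts the cells made was not analysed here.

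B4galt5 codes for a beta-1,4-galactosyltransferase that acts on core 2 branches and also makes lactosylceramide. It gave 9.92, 9.74 and 9.63 in deletion cells, 10.17, 10.16 and 9.97 in anergy cells and 8.79, 8.90 and 8.71 in naive cells. The 3 groups did not overlap, with anergy cells highest and naive cells lowest. Against naive cells it rose 1.95-fold in deletion cells (limits 1.69 to 2.25; difference 0.96 ± 0.09, adjusted p = 3.45e-05, limma), the 37th largest rise of the array. It rose 2.46-fold in anergy cells (limits 2.13 to 2.84; difference 1.30 ± 0.09, adjusted p = 3.09e-06), the 29th largest.

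**Figure D1:**
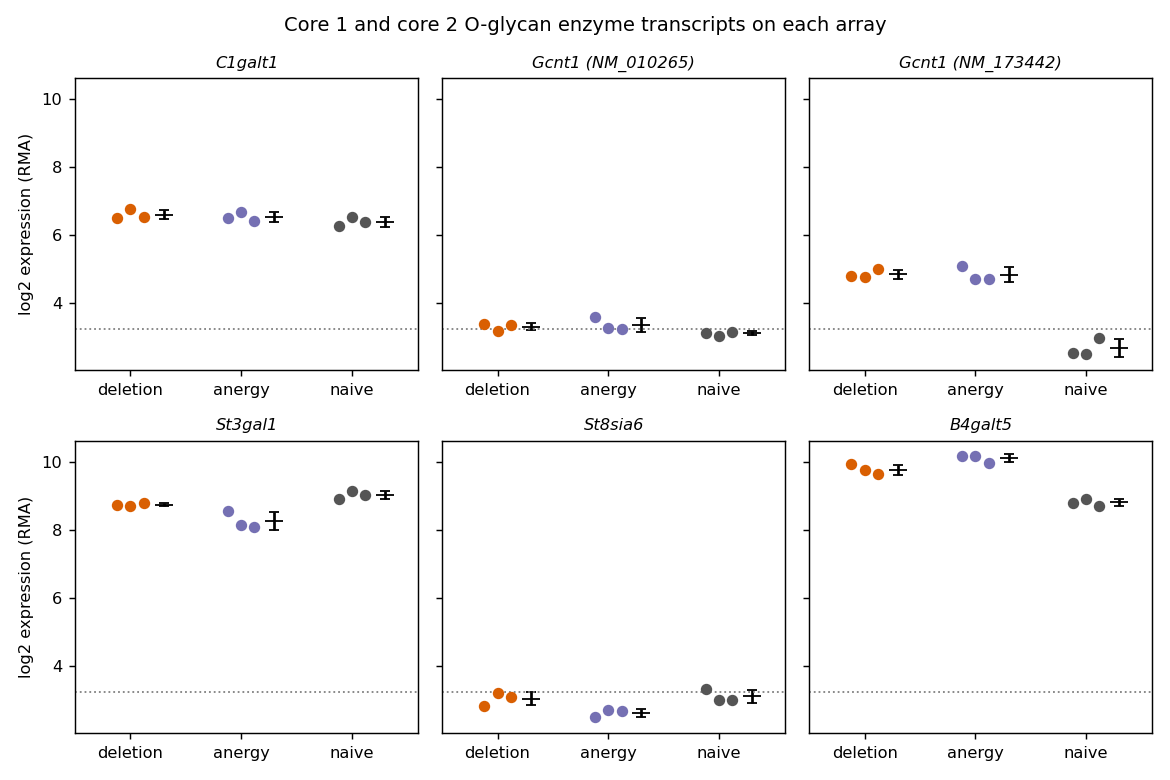
Log2 expression of each probe set on each array (points), with the group mean and SD beside them (black bars, n = 3 arrays per group). The dotted line is the mean lower quartile of the arrays. The NM_173442 probe set of Gcnt1 and B4galt5 are higher on all 6 stimulated arrays than on the 3 naive arrays, and St3gal1 is lowest in anergy cells.

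In counts, deletion cells had 2 of the 6 probe sets above and 0 below naive cells past the threshold, against 8.51% higher and 10.5% lower over all probe sets of the array. In anergy cells 2 were higher and 2 lower, against 10.8% and 16.1% over the array. With 0 lower calls in deletion cells, 3 of the 6 probe sets had an unadjusted p under 0.05 in that comparison, the pair that rose and St3gal1. The share of all probe sets under this unadjusted p was not analysed here, so that count has no background. The median difference of the 6 probe sets was 0.20 in deletion and 0.20 in anergy cells, against -0.02 and 0.01 over all probe sets. Both comparisons share the naive arrays, so their likeness is not a separate result. The members were listed for their known roles with earlier results of these data in view, and no chance statement is attached to these counts.

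The comparison at the centre of the design, deletion against anergy, asked whether the weak and the strong signal leave different levels of these transcripts. None of the 6 probe sets passed the threshold, where 3.37% of all probe sets did. An unadjusted p under 0.05 was found for 3 of the 6, a count again without a share over all probe sets beside it. In the same comparison 3 of the 6 had groups that did not overlap, against 16.6% over the array. The median difference of the 6 probe sets was 0.04, against -0.01 over all probe sets.

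St3gal1 was the nearest to passing: deletion cells were 1.40-fold above anergy cells (limits 1.17 to 1.67; difference 0.48 ± 0.11, adjusted p = 0.054, limma) with no overlap. Without anergy replicate 1, whose value was the highest of its group, the difference was 0.63 and passed (adjusted p = 0.00337). St8sia6 was 1.34-fold above anergy cells in deletion cells (limits 1.11 to 1.62; difference 0.42 ± 0.12, adjusted p = 0.103), also with no overlap, and it passed without deletion replicate 1 (adjusted p = 0.0494). B4galt5 was 1.26-fold below anergy cells in deletion cells (limits 1.09 to 1.46; difference -0.34 ± 0.09, adjusted p = 0.0858), with no overlap. With the replicate number as a block over all 9 arrays B4galt5 passed (adjusted p = 0.0344), with the block on the deletion and anergy arrays alone it did not (adjusted p = 0.0768), and without deletion replicate 1 it passed (adjusted p = 0.0499). St3gal1 did not pass with the block over all 9 arrays (adjusted p = 0.0647) or on the deletion and anergy arrays alone (adjusted p = 0.0893). Nor did St8sia6 (adjusted p = 0.126 and 0.0515 in the same 2 block fits). Over all other settings, St3gal1 passed in 3 of 18, St8sia6 in 1 of 17 and B4galt5 in 4 of 18. The highest adjusted p in those settings was 0.161 for St3gal1, 0.32 for St8sia6 and 0.274 for B4galt5 (limma).

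Neither Gcnt1 probe set nor C1galt1 came near the threshold between deletion and anergy cells. The difference of its NM_173442 probe set was 0.02 ± 0.15, with limits of -0.31 to 0.34, a ratio between 0.808 and 1.27 (adjusted p = 0.959, limma). For the NM_010265 probe set it was -0.06 ± 0.10, with limits of -0.29 to 0.17 (adjusted p = 0.814). C1galt1 differed by 0.06 ± 0.10, with limits of -0.17 to 0.29 (adjusted p = 0.814). These intervals bound the differences and do not show that the groups are alike.

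**Figure D2:**
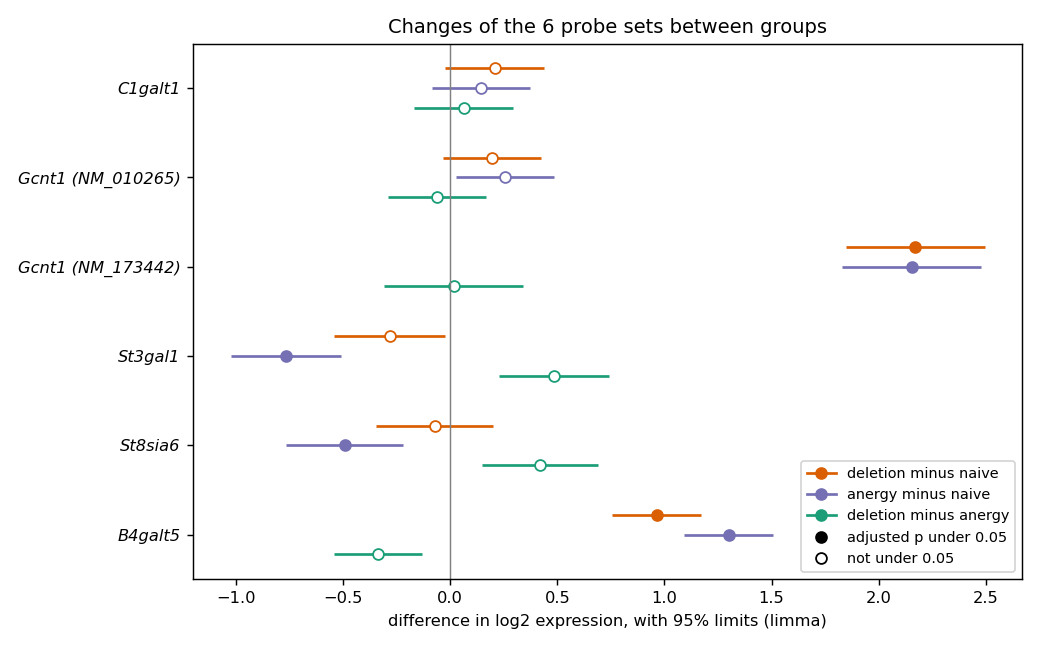
Difference in log2 expression of each probe set for the 3 comparisons (points) with 95% limits from limma (bars), all from the fit over 9 arrays. Filled points have an adjusted p under 0.05. The NM_173442 probe set of Gcnt1 stands at 2.17 in deletion and 2.15 in anergy cells against naive cells, and every deletion minus anergy point is open.

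The balance between the branching and capping transcripts was first followed as the log2 difference between a pair of probe sets on each array, relative to the mean of that difference in naive cells. Such a value shows unequal change of the pair and no level of either, and it was given no test. For Gcnt1 (NM_173442) minus St3gal1 it was 2.39, 2.40 and 2.56 on the deletion arrays, 2.88, 2.90 and 2.97 on the anergy arrays and -0.03, -0.28 and 0.30 on the naive arrays. The 3 groups did not overlap, and the difference averaged 2.45 ± 0.10 in deletion cells and 2.92 ± 0.05 in anergy cells (SD, n = 3 arrays each). Since this Gcnt1 probe set was dim on all naive arrays, these values may be too small. With the NM_010265 probe set of Gcnt1 in its place, a choice added after the data were seen, the difference was 0.56, 0.39 and 0.47 on the deletion arrays, 0.97, 1.02 and 1.07 on the anergy arrays and 0.12, -0.18 and 0.05 on the naive arrays. The order of the groups was the same with no overlap, and the values were much smaller, 0.48 ± 0.09 in deletion cells and 1.02 ± 0.05 in anergy cells (SD, n = 3 arrays each). St3gal1, at -0.28 in deletion cells and -0.77 in anergy cells against naive cells, was the larger part of these smaller values, and this Gcnt1 probe set, at 0.19 and 0.26, the smaller part. Both pairs subtract the same St3gal1 values. Between deletion and anergy cells Gcnt1 differed by 0.02 (NM_173442) and -0.06 (NM_010265), and St3gal1 by 0.48 (adjusted p = 0.054, limma). The gap between deletion and anergy cells in both pairs is thus mostly the uncalled St3gal1 difference and no separate result. For B4galt5 minus St3gal1 the pair difference was 1.41, 1.26 and 1.07 on the deletion arrays, 1.85, 2.23 and 2.12 on the anergy arrays and 0.10, -0.01 and -0.09 on the naive arrays. Again anergy arrays lay above deletion arrays, and both above naive arrays, in a pair that subtracts the same St3gal1 values.

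Set against the core 1 synthase the result depended on the Gcnt1 probe set. Gcnt1 (NM_173442) minus C1galt1 was 1.98, 1.72 and 2.19 on the deletion arrays, 2.28, 1.74 and 2.01 on the anergy arrays and 0.00, -0.31 and 0.31 on the naive arrays, so deletion and anergy overlapped and both lay above naive. With NM_010265 the 3 groups overlapped, with means of -0.013 in deletion cells and 0.11 in anergy cells. B4galt5 minus C1galt1 was 1.00, 0.58 and 0.70 on the deletion arrays, 1.25, 1.07 and 1.16 on the anergy arrays and 0.13, -0.04 and -0.08 on the naive arrays, with no overlap between the groups. B4galt5 was thus above its naive balance with C1galt1 on all 6 stimulated arrays, and Gcnt1 was so for NM_173442 but not for NM_010265. C1galt1 itself differed from naive cells by 0.21 in deletion and 0.14 in anergy cells, with neither called. The B4galt5 and NM_173442 pairs with C1galt1 thus mostly repeat the called rises of those probe sets and are no separate result. Gcnt1 (NM_173442) minus B4galt5 was 0.98, 1.14 and 1.49 on the deletion arrays, 1.03, 0.67 and 0.85 on the anergy arrays and -0.13, -0.27 and 0.39 on the naive arrays. With NM_010265 its sign was the opposite, at means of -0.77 in deletion cells and -1.04 in anergy cells. St8sia6 minus St3gal1 was 0.00, 0.42 and 0.22 on the deletion arrays, -0.14, 0.46 and 0.51 on the anergy arrays and 0.33, -0.21 and -0.11 on the naive arrays. The 3 groups overlapped for this pair of sialyltransferases, whose members were both lower in anergy cells.

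**Figure D3:**
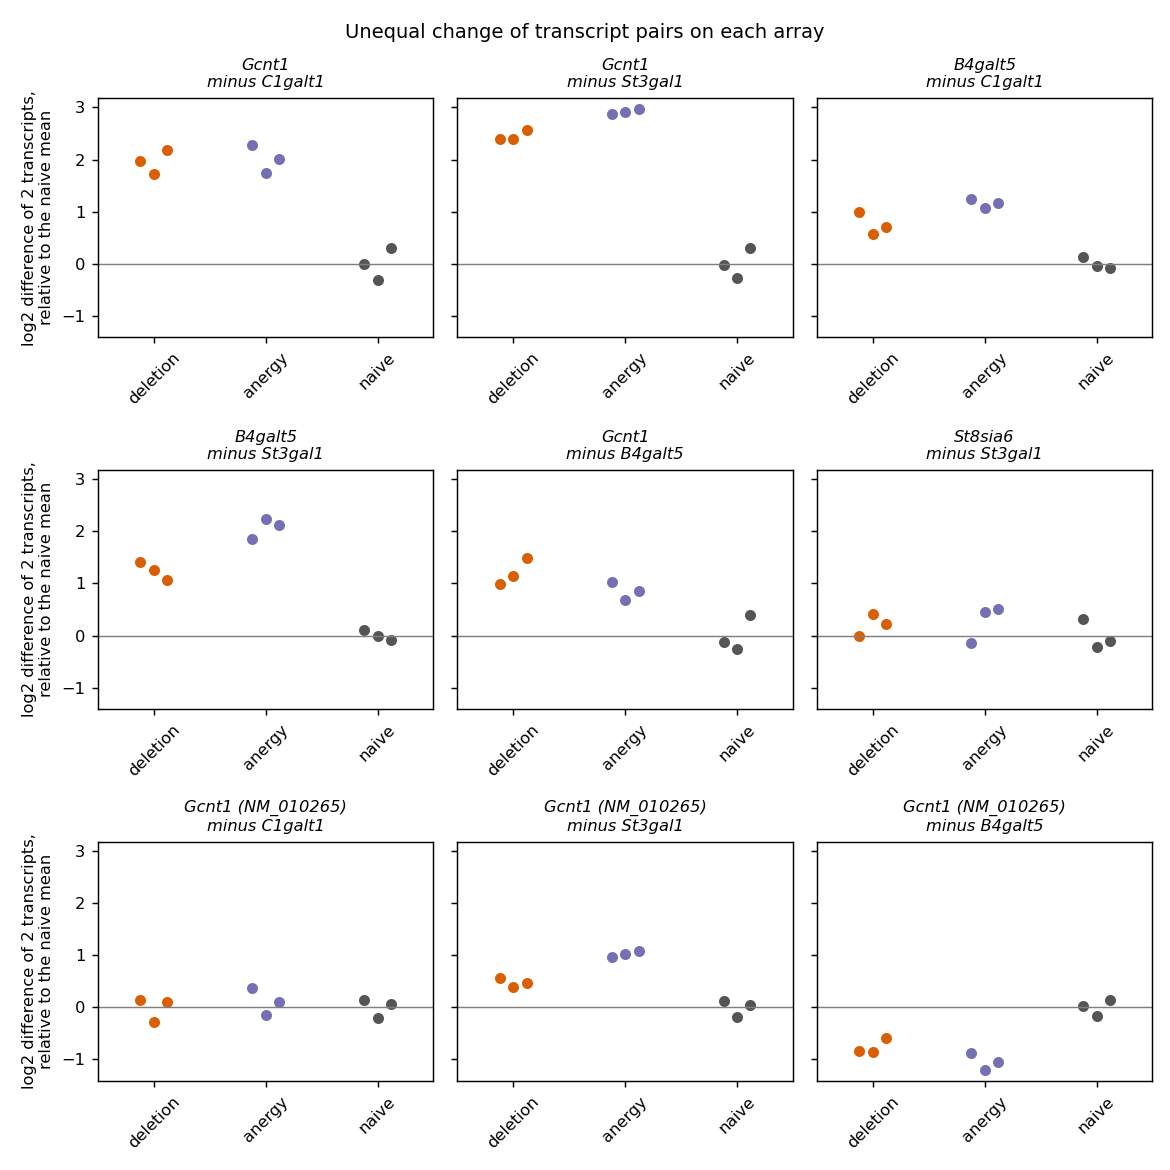
Log2 difference between the named pair of transcripts on each array (points), relative to the mean of the naive arrays (line at 0). Panels headed Gcnt1 alone use its NM_173442 probe set, and the bottom row uses NM_010265. Gcnt1 (NM_173442) minus St3gal1 lies between 2.39 and 2.56 in deletion cells, between 2.88 and 2.97 in anergy cells and between -0.28 and 0.30 in naive cells; with NM_010265 it averages 0.48 in deletion and 1.02 in anergy cells.

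Other genes of O-glycan synthesis were taken from lists of known roles. The array as a whole gives a background for the list counts below. Against naive cells, 8.51% of its probe sets were called higher in deletion cells and 10.5% lower. For anergy cells these shares were 10.8% and 16.1%. Between deletion and anergy cells 3.37% passed in either direction. No list count was tested against these shares, so a count near its share is no result of the list. Of 7 further core synthesis and branching genes 4 were measured (C1galt1c1, Gcnt2, Gcnt3 and B3gnt6), and 0 passed in either direction against naive cells in deletion or anergy cells (limma; 1 of the 4, C1galt1c1, had an unadjusted p under 0.05 in each). Gcnt2 and Gcnt3 are other members of the branching family, and B3gnt6 makes core 3. Their median difference was -0.07 in deletion cells and 0.01 in anergy cells.

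Among 11 other listed sialyltransferases, 1 was higher and 0 lower in deletion cells against naive cells, and likewise 1 and 0 in anergy cells, with list medians of 0.06 and 0.02. The gene in deletion cells was St3gal4, which sialylates lactosamine ends. It averaged 6.90 ± 0.17 in deletion cells, 6.46 ± 0.08 in anergy cells and 6.42 ± 0.10 in naive cells (SD, n = 3 arrays each). It rose by 0.48 ± 0.09 in deletion cells against naive cells (adjusted p = 0.00444, limma) and was the 1 sialyltransferase of this list to pass between deletion and anergy cells, at 0.44 ± 0.09 (adjusted p = 0.0315), a call kept in 8 of 18 other settings. The gene in anergy cells was St6galnac6, a GalNAc alpha-2,6-sialyltransferase, at 0.34 ± 0.09 against naive cells (adjusted p = 0.0132). That call was lost without anergy replicate 2 and without naive replicate 2, where the highest adjusted p was 0.0566.

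The array also measured 6 other beta-1,4-galactosyltransferases, the family of B4galt5, which link galactose to N-acetylglucosamine, glucose or xylose. Of these 1 was higher and 2 lower in deletion cells, and 0 higher and 3 lower in anergy cells, against naive cells. B4galt1, the broadly acting enzyme of the family, fell by 0.62 ± 0.10 in deletion cells (adjusted p = 0.00148, limma) and fell by 0.74 ± 0.10 in anergy cells (adjusted p = 0.000339). B4galt3 fell by 0.34 ± 0.08 in deletion cells (adjusted p = 0.00953) and fell by 0.44 ± 0.08 in anergy cells (adjusted p = 0.00143). B4galt7, which acts in the linker of proteoglycans, fell by 0.63 ± 0.14 in anergy cells (adjusted p = 0.00702). B4galt4 was at 0.44 ± 0.14 in deletion cells (adjusted p = 0.0494), a call kept in 4 of 17 other settings. The list medians were -0.19 in deletion cells and -0.22 in anergy cells, and 0 of the 6 passed between deletion and anergy cells, or had an unadjusted p under 0.05 (limma).

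Of 9 measured genes of lactosamine and core 1 extension, 2 were higher and 0 lower in each of the comparisons with naive cells. B3gnt2, the main polylactosamine-extending enzyme, averaged 9.21 ± 0.12 in deletion cells, 9.02 ± 0.15 in anergy cells and 8.48 ± 0.16 in naive cells (SD, n = 3 arrays each). It rose by 0.73 ± 0.10 in deletion cells (adjusted p = 0.000627, limma) and by 0.54 ± 0.10 in anergy cells (adjusted p = 0.00275). B3gnt5, the lactosylceramide-extending enzyme, rose by 0.90 ± 0.17 in deletion cells (adjusted p = 0.0041) and by 0.99 ± 0.17 in anergy cells (adjusted p = 0.00149). The list medians were -0.01 in deletion cells and 0.09 in anergy cells.

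The GalNAc transferases act a step before C1galt1 and start every mucin-type O-glycan. Of 19 measured, 0 were higher and 5 lower in deletion cells, and 0 higher and 5 lower in anergy cells, against naive cells, with list medians of -0.04 and -0.10. Galnt10 fell by 2.84 ± 0.13 in deletion cells and fell by 3.85 ± 0.13 in anergy cells (adjusted p = 1.9e-07 and 2.32e-08, limma), and Galnt6 fell by 1.47 ± 0.07 in deletion cells and fell by 1.73 ± 0.07 in anergy cells (adjusted p = 1.31e-07 and 3.48e-08). Between deletion and anergy cells 1 of the 19 passed, Galnt10, which was higher in deletion cells by 1.00 ± 0.13 (adjusted p = 0.00275, limma). Of 12 listed genes of cell surface glycoproteins, 4 were measured, 1 higher and 1 lower in both comparisons. Cd44, the hyaluronan receptor, rose by 1.85 ± 0.17 in deletion cells and by 1.97 ± 0.17 in anergy cells (adjusted p = 2.94e-05 and 1.47e-05, limma). Icam1, the integrin ligand, fell by 1.27 ± 0.09 in deletion cells and fell by 1.32 ± 0.09 in anergy cells (adjusted p = 4.8e-06 and 3.04e-06). Selplg, the P-selectin ligand whose binding needs core 2 branches, was at 0.02 ± 0.06 in deletion cells and 0.06 ± 0.06 in anergy cells (adjusted p = 0.902 and 0.559). It gave 5.27 on all 3 deletion arrays, 5.25, 5.27 and 5.40 on the anergy arrays and 5.20, 5.27 and 5.27 on the naive arrays. Whether so constant a probe set responds to its transcript was not tested, so an unchanged transcript is not shown.

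**Figure D4:**
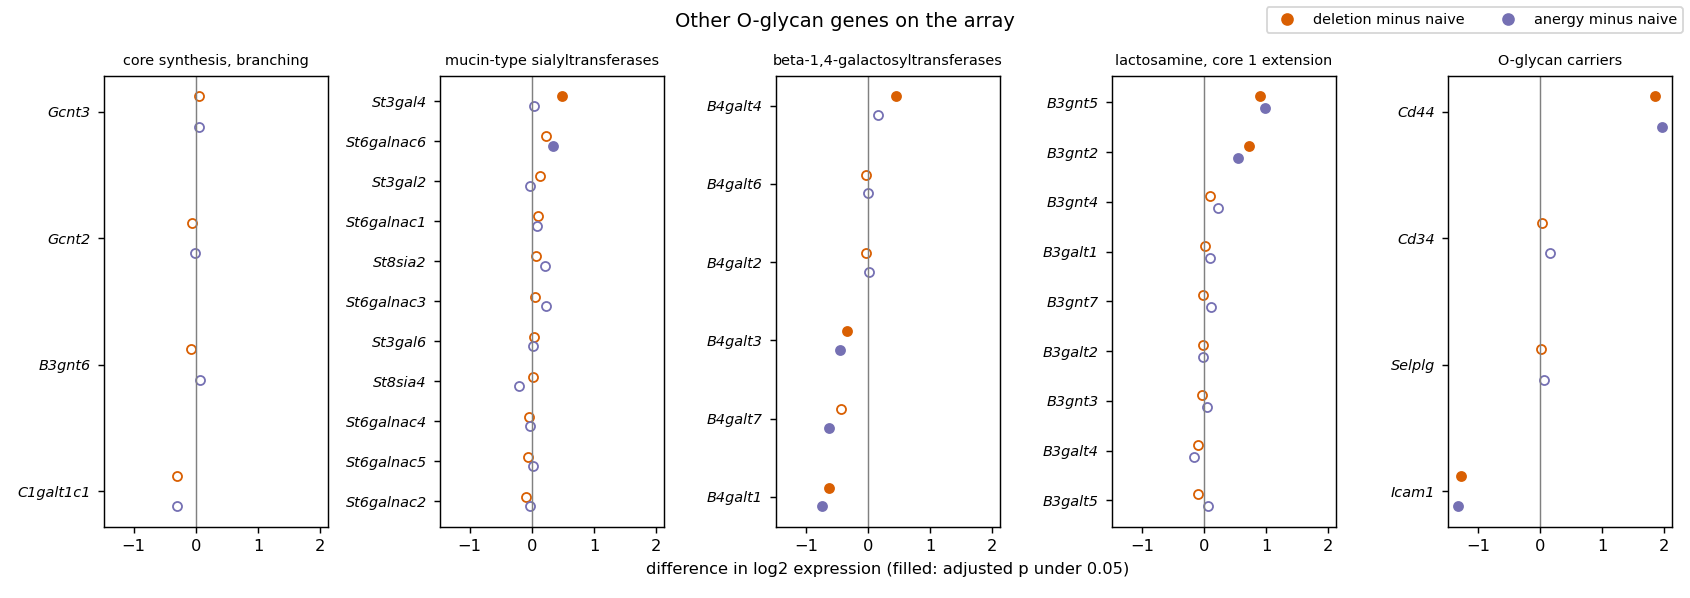
Difference in log2 expression from naive cells of the other measured genes by list, GalNAc transferases left out, in deletion cells (upper point of each gene) and anergy cells (lower point). Filled points have an adjusted p under 0.05 in limma. B4galt1 is lower and B3gnt2, B3gnt5 and Cd44 are higher in both, and the 4 core synthesis and branching genes have open points. Of these, Gcnt2 and Gcnt3 were below the lower quartile of the arrays, where a change could go unseen. Panel headings are list names.

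For each gene with a called change, the genes whose probe sets followed it most closely were listed by the root mean square log2 difference over the 9 arrays, each probe set set to 0 at its naive mean. For Gcnt1 (NM_173442) these were Il2rb (0.317), Psen2 (0.354) and Cd44 (0.412). For B4galt5 they were Gmds (0.144), Pmm1 (0.158) and Mrpl27 (0.208). For St3gal1 they were Ust (0.0745), Ndst1 (0.109) and Ifnar1 (0.111), and for St8sia6 they included Magi2 (0.148) and Rpl23 (0.158). St3gal1 and Ust, a uronyl sulfotransferase, ran closest: Ust differed from naive cells by -0.36 in deletion cells and -0.76 in anergy cells, where St3gal1 differed by -0.28 and -0.77. A small value is a likeness of 9 points that share 3 group means and describes nothing beyond them.

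Markers of other cells were read beside these values as summed linear levels per array. The 4 measured of 9 B cell markers summed to 404 to 574 in deletion cells, 376 to 433 in anergy cells and 610 to 680 in naive cells. Their members did not move together: 2 were higher and 1 lower in deletion cells, and 1 higher and 1 lower in anergy cells, against naive cells. Cd22 rose by 1.17 ± 0.16 in deletion cells and by 0.98 ± 0.16 in anergy cells (adjusted p = 0.000413 and 0.00093, limma), Cxcr5 rose by 0.64 ± 0.15 in deletion cells (adjusted p = 0.0138, a call lost without deletion replicate 3, naive replicate 1 or naive replicate 3), and Cd72, which carries most of the naive sum, fell by 1.56 ± 0.17 in deletion cells and fell by 1.64 ± 0.17 in anergy cells (adjusted p = 0.000101 and 5.47e-05). The 8 measured of 16 macrophage and dendritic cell markers summed to 123 to 153 in deletion cells, 119 to 142 in anergy cells and 129 to 140 in naive cells, and 0 of them passed in any comparison (limma; unadjusted p under 0.05 for 0 in deletion against naive, 1 in anergy against naive and 1 in deletion against anergy). The 3 measured of 5 NK cell markers, which activated CD8 T cells can also express, summed to 1160 to 1488 in deletion cells, 1355 to 1501 in anergy cells and 2591 to 2933 in naive cells. This sum follows Klrd1, which fell by 1.04 ± 0.10 in deletion cells and fell by 0.92 ± 0.10 in anergy cells (adjusted p = 3.01e-05 and 5.95e-05, limma). Of these 3 genes 0 were higher and 1 lower in deletion cells, and 1 higher and 1 lower in anergy cells: Klrk1 rose by 0.79 ± 0.14 in anergy cells (adjusted p = 0.0014) and was at 0.29 ± 0.14 in deletion cells (adjusted p = 0.205). The 2 measured of 7 erythroid and granulocyte markers summed to 30.5 to 32.4 in deletion cells, 24.0 to 31.0 in anergy cells and 29.1 to 34.8 in naive cells, with 1 higher and 0 lower in each comparison with naive cells (Siglecf, at 0.33 ± 0.09 in deletion and 0.39 ± 0.09 in anergy cells, adjusted p = 0.0293 and 0.00856; the call in deletion cells was kept in 11 of 16 other settings), and the 4 CD4 T cell markers were not measured. Siglecf lay between 2.22 and 2.86 on all 9 arrays, below the lower quartile of each. Klrk1 was also below that quartile on the naive arrays, at 2.78 to 2.94. Whether these probe sets measured their transcripts there was not tested. Cd2, a T cell adhesion receptor, stood at 904 to 1333 in deletion cells, 644 to 714 in anergy cells and 2957 to 3281 in naive cells. On the log2 scale it fell by 1.57 ± 0.14 in deletion cells and fell by 2.18 ± 0.14 in anergy cells (adjusted p = 1.7e-05 and 1.04e-06, limma). Deletion cells were above anergy cells by 0.61 ± 0.14 (adjusted p = 0.039, limma), a call lost after quantile normalization and without anergy replicate 3. The part of other cell types in the levels of the O-glycan enzymes was not tested.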

How the data were processed

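Single-colour arrays were run on total RNA of 9 samples in 3 groups of 3, assigned from the labels. The authors deposited log2 values, 1 per probe set and array, made with RMA per the submitters' processing notes. Neither a version nor an annotation nor a filter is given in the sources used here. That the scale is log2 follows from the method and from values of 1.67 to 13.86. No detection column was used, so no probe set was called absent.

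Probe sets were named through the RefSeq accession in their ID, without its version, and a RefSeq gene table of GRCm38.p6 (names only): 962 of 1246 (77.2%) gave 908 genes and 284 stayed unnamed. Values were used as deposited, unfiltered. For the 3 contrasts, lmFit and eBayes of limma 3.58.1 (R 4.3.3) ran on all 9 arrays at once, with 6 residual and 3.65 prior degrees of freedom, after the script had been tested on simulated data. Counts over a list take the brightest probe set of each gene.

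Same-numbered deletion and anergy arrays deviated together from their group means (r = 0.195, 0.270 and 0.280), which comes from the data and not the labels. For the pairs with naive arrays r ran from -0.154 to 0.274, and anergy and naive replicates 2 and 3 gave 0.274 and 0.175. Deletion against anergy had all 3 values above 0, so only that comparison counts as possibly paired. The deviations of arrays with different numbers were not compared, so these values have no reference. The main fit used no block, so its p-values for deletion against anergy ignore any such pairing. The named genes are all members, up to 4 called genes of each other list by smallest adjusted p, and the 3 genes most like each called member; C1galt1c1, Gcnt2, Gcnt3, B3gnt6, Selplg and the cell type markers are named outside this rule, with their values already seen. The result of 1 gene that the rule names is not reported here. The members, lists and tests were chosen with earlier results of these data known. Alternatives were other normalizations and moderation, array weights, the samples in the fit, a filter on dim probe sets, the replicate block, and each array left out.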

Additional observations from a re-analysis of the deposited data

How the results depend on the processing

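Over 17 planned settings and 1 block fit added after the data were seen, 306 member values were recomputed: 285 kept their direction and side of the threshold, 10 newly passed, 11 changed sign and 0 calls were lost. The rises of Gcnt1 (NM_173442) and B4galt5 in both stimulated groups and the falls of St3gal1 and St8sia6 in anergy cells passed in every setting that tested them; leaving out the dimmest 33.3% of probe sets removed St8sia6, so the lower count of anergy against naive was 1 there. For deletion against anergy, B4galt5 gave -0.38 after quantile normalization (adjusted p = 0.0225), -0.36 with array weights (0.0351), and -0.34 with the replicate block (0.0344), and leaving out arrays gave -0.42 to -0.27. St3gal1 gave 0.45 with array weights (0.0351), 0.48 with the dimmest 33.3% of probe sets left out (0.0407), and 0.39 to 0.63 with an array left out, St8sia6 0.34 to 0.53. The higher count was 1 with array weights and with the dimmest 33.3% of probe sets left out, the lower count 1 under quantile normalization, array weights and the replicate block, and each was 0 to 1 with an array left out. Values near 0 changed sign: C1galt1 gave -0.019 after quantile normalization, -0.026 with array weights and -0.015 to 0.14 with an array left out, Gcnt1 (NM_173442) -0.0044 with array weights and -0.06 to 0.14, and Gcnt1 (NM_010265) -0.13 to 0.055. For deletion against naive, St3gal1 gave -0.28 in the fit of only the 2 groups (0.0252) and -0.34 to -0.23 with an array left out, and St8sia6 -0.16 to 0.037; the lower count was 1 with only the 2 groups and 0 to 1 with an array left out. Over the whole array, calls between deletion and anergy numbered 26 higher and 16 lower, against 32 and 38 when quantile-normalized, 13 and 13 when centred on the median, 44 and 31 with array weights, 8 and 13 in the fit of only the 2 groups and 33 and 22 with the replicate block. Among the beta-1,4-galactosyltransferases, deletion against naive gave 0 higher and 3 lower when quantile-normalized and without anergy replicate 3, and 0 and 2 when centred on the median; of the GalNAc transferases 1 was higher in anergy cells after quantile normalization and without anergy replicate 3. With the NM_010265 probe set of Gcnt1, also added after the data were seen, the mean pair difference in deletion and anergy cells was 0.48 and 1.02 against St3gal1, -0.013 and 0.11 against C1galt1, and -0.77 and -1.04 against B4galt5. The cause of these changes was not tested. The number of arrays and the dim signal of St8sia6 and Gcnt1 limit the precision.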
